A study of Mus musculus with 8 samples.

Results

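The proteasome genes are described here in AML12 cells, a hepatocyte line established from the liver of a mouse transgenic for human transforming growth factor alpha. A gene was taken as a member when its symbol was Psm followed by a letter from a to g and a number, which gave 50 of the 55401 genes in each deposited table. Another 5 genes with such a symbol carried the pseudogene mark -ps and were left out, and none of these had a TPM above 1.04 in any dish. The members comprised 8 alpha (Psma) and 11 beta (Psmb) subunits of the 20S core, 6 ATPases (Psmc) and 14 non-ATPase genes (Psmd) of the 19S particle, 5 activator genes (Psme), and 5 genes of an inhibitor and assembly chaperones (Psmf and Psmg). The remaining gene, Psmc3ip, encodes a cofactor of meiotic recombination and is no part of the proteasome. It met the symbol rule, so it is included in the totals of all members and also described separately.

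Total RNA was taken from 4 control dishes and from 4 dishes exposed for 1 h to Opti-ELF-WMF, an extremely low frequency weak magnetic field of 100 mG at its peak, given as 4 ms pulses whose frequency stepped from 1 to 8 Hz. The control dishes came from the same batch of cultured cells, were prepared at the same time, and stood in another incubator of the same model with the stimulator off. Exposure and incubator therefore cannot be told apart in this design. All dishes held the same cell line, cultured in medium with fetal bovine serum, dexamethasone, insulin, transferrin and selenite, and a dish was the unit of replication. In such bulk RNA, fewer cells with a transcript and less of it per cell cannot be told apart.

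The proteasome is the main protease of the cytosol and nucleus and degrades proteins tagged with ubiquitin. In the 20S core, rings of alpha subunits form the gate and rings of beta subunits hold the active sites, while the 19S particle recognizes tagged proteins, removes the ubiquitin and unfolds the chain with its ring of ATPases. Interferon-induced beta subunits can replace the constitutive catalytic subunits to form the immunoproteasome, which hepatocytes and other non-immune cells hold in small amounts at rest.

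The promoters are shown first because many constitutive subunits are known to be regulated together. RefSeq held a promoter entry on GRCm38.p6 for 42 of the 50 members. The printed windows are the 250 bases before the RefSeq start of 3 members, chosen among those with no annotated exon in the window, from the 19S lid, the 19S base and the catalytic ring. Capitals mark matches to TGACNNNGC (the core of the antioxidant response element, also read by Nfe2l1, the transcription factor of proteasome genes), CCAAT or CCGGAAG (the core bound by ETS factors), on either strand. Psmd14 has CCAAT on the other strand, Psmd2 has CCGGAAG on the other strand, and Psmb6 has TGACNNNGC as printed.
Psmd14, chr2:61711444-61711693, plus strand: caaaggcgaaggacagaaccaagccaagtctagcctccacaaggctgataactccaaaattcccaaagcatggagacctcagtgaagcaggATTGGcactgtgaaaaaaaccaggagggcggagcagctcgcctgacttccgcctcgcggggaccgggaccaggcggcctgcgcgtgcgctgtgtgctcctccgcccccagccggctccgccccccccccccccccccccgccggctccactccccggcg
Psmd2, chr16:20651402-20651651, plus strand: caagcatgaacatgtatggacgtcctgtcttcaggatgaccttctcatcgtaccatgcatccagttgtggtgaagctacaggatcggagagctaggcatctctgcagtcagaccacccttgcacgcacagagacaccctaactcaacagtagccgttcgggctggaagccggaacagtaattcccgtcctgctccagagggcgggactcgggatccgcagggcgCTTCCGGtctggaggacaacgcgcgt
Psmb6, chr11:70525107-70525356, plus strand: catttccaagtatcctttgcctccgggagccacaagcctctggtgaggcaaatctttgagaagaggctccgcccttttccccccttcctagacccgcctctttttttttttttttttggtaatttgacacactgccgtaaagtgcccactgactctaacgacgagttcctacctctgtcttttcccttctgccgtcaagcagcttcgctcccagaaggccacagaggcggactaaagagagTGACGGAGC

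Motifs were counted on both strands from 250 bases before to 50 bases after the start. CCGGAAG was present in 15 of the 42 member promoters (35.7%) and in 9.93% of the promoters of all 27025 genes with an entry. TGACG was present in 45.2% of the member promoters against 23% of all, and GGGCGG, the core of the GC box, in 54.8% against 38.2%. TGACNNNGC, whose matches can overlap those of TGACG, was present in 14.3% of the member promoters against 14% of all, and CCAAT in 35.7% against 41.1%. Of the other 6 motifs, TATAAA was found in 9.52% of the member promoters against 15.7% of all, CACGTG in 9.52% against 8.09%, TTCNNNGAA in 7.14% against 9.55%, and a pair of TTTC repeats with a gap of 2 bases, the core of the interferon-stimulated response element, in 11.9% against 3.99%, while TGACTCAGC and TGACGTCA had no match in a member. These shares describe letters in the windows and say nothing of factor binding.

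The tables held TPM, a measure of transcript abundance that corrects for gene length and sets every sample to the same total, so levels of different genes can be set side by side but the sequencing depth is unknown. A gene was tested when its TPM was at least 1 in at least 4 dishes, which 12122 genes and 47 of the 50 members met. The identity of the cells was checked by markers. Of the hepatocyte markers, Trf, Ttr and Hnf4a were abundant, and Alb was at 55.1 ± 2.67 TPM (SD, n = 4) in control dishes. Serpina1a, Apoa1 and Afp were low, with means over all dishes of 5.80, 4.16 and 0.98 TPM. Cps1 and Asgr1 did not exceed 0.05 TPM, and Cyp2e1 was listed at 0 in every dish. The biliary or progenitor markers Krt19, Krt7, Sox9 and Epcam had means over all dishes of 1161, 69.0, 31.0 and 0.0475 TPM. The general epithelial markers Krt8, Krt18 and Cdh1 were abundant. The summed markers of fibroblasts, endothelium and leukocytes reached at most 1.32, 0.08 and 2.31 TPM in any dish. The share of TPM held by genes encoded in mitochondrial DNA was 8.69% to 9.42% in control dishes and 5.99% to 7.69% in exposed dishes. Together with near-identical nuclear copies it was 13.8% to 14.8% and 9.61% to 12.0%. Reads can be split between a mitochondrial gene and its copy by the counting, and this split was not tested. The copy Gm10925 had a mean of 12824 TPM against 720 TPM for mt-Atp6, to which it is identical along the aligned bases. For Gm29216 and mt-Co1 the means were 1124 and 13018 TPM. A fall in the mitochondrial share raises the TPM of all other genes, and the median difference of all genes tested was 0.026 on the log2(TPM + 1) scale.

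Proteasome genes were expressed well above the typical gene. The median of the control means was 149.8 TPM over the 47 members tested and 21.9 TPM over all genes tested. It was 203 TPM in the 20S core, 158 TPM in the 19S particle, 93.9 TPM among the activators and 40.1 TPM among the inhibitor and assembly chaperones. The replicates were tight, with a median coefficient of variation among control dishes of 2.83% over the members and 5.16% over all genes tested. The 20S core and the 19S particle, each summed in TPM, stood in a ratio of 0.896 to 0.904 in the control dishes and 0.880 to 0.912 in the exposed dishes, so the ranges overlapped.

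**Figure D1:**
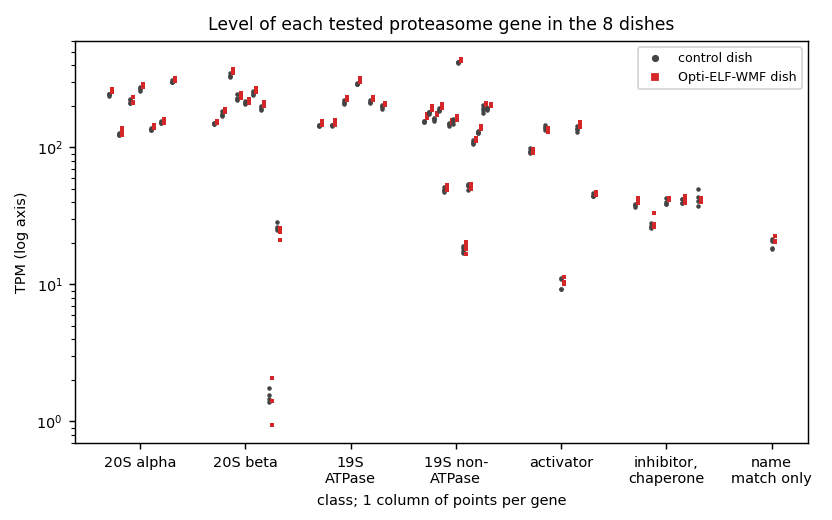
TPM on a log axis of the 47 tested members, Psmc3ip included as the name match only, grouped by class, with 1 column of points per gene, circles for the 4 control dishes and squares for the 4 Opti-ELF-WMF dishes. Most core and 19S genes lie above 100 TPM, while Psmb8, an inducible subunit, lies between 0.94 and 2.09 TPM.

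The 3 members that were not tested are forms with a restricted expression. Psma8, the testis-specific alpha subunit, was listed at 0 in every dish, and Psmb11, the beta subunit of the thymic cortex, did not exceed 0.01 TPM. Psmb9, an inducible catalytic subunit, was at 1.03, 0.89, 0.69 and 0.70 TPM in the control dishes and at 0.56, 0.99, 0.79 and 1.15 TPM in the exposed dishes. These low values overlapped between conditions.

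Most proteasome genes were slightly higher after 1 h of Opti-ELF-WMF, and none passed the test after adjustment over all genes. By limma, 26 of the 47 members were higher with an unadjusted p-value under 0.05 and 0 were lower, where 12% of all genes tested were called higher and 3.65% lower. Without Psmc3ip, 26 of 46 were higher. After Benjamini-Hochberg adjustment of limma's p-values, 0 of the 47 members and 0 of the 12122 genes passed 0.05, where 1451 genes were higher and 443 lower before adjustment. The median difference of the members was 0.075 on the log2(TPM + 1) scale, a median change of 5.36% in TPM, against 0.026 and 2.00% over all genes. The highest difference of a member was 0.12, in Psmd13. All 31 constitutive structural subunits, which are Psma1 to Psma7, Psmb1 to Psmb7, the ATPases, and the Psmd genes other than Psmd5, Psmd9 and Psmd10, had a difference above 0, and 24 of them had an unadjusted p-value under 0.05. A difference above 0 was found in 63.7% of all genes tested. These 31 subunits had control means of 109 to 417 TPM, and the share above 0 among genes of that level was not counted.

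Abundant genes were called more often than others. Among the 1315 tested genes with a mean TPM from 100 to 425, the level of the highest member, 35.7% were higher and 1.67% lower with an unadjusted p-value under 0.05, with a median difference of 0.057. In this range lay 33 members, of which 25 were higher, with a median difference of 0.087. Without limma's trend of variance with level, 18 of the 47 members were called higher and 0 lower (background 10.1% and 4.12%). Within the range, 51.5% of the members and 24.9% of all genes were then called higher.

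The counts depended on how the samples were scaled. After upper-quartile scaling, 7 members were higher and 2 lower (background 4.85% and 6.61%), after median-of-ratios scaling 9 and 2 (5.55% and 6.23%), and on TPM rescaled without mitochondria-encoded genes 15 and 2 (5.72% and 5.58%). Rescaling also without their nuclear copies left 3 members higher and 2 lower (3.31% and 7.77%). The median of the members was above that of all genes by 0.046 to 0.047 under these scalings. Of the 31 constitutive subunits, 6, 8, 14 and 3 were called higher in this order. All 31 had a difference above 0 under the first 3 scalings and 28 under the last, where 39.4% of all genes did. In the range of 100 to 425 TPM, the share of members called higher against that of all genes was 18.2% against 12.9%, 24.2% against 15.1%, 42.4% against 16.5% and 9.09% against 8.75% in the same order. The median differences in this range were 0.054, 0.058, 0.058 and 0.040 for the members. For all genes in it they were 0.023, 0.028, 0.027 and 0.0095. The members called lower were Psmb10 and Psme2 under each of these 4 scalings. The part of the mitochondrial share in these differences was not tested. These 4 scalings only show how the differences move when the samples are scaled otherwise.

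**Figure D2:**
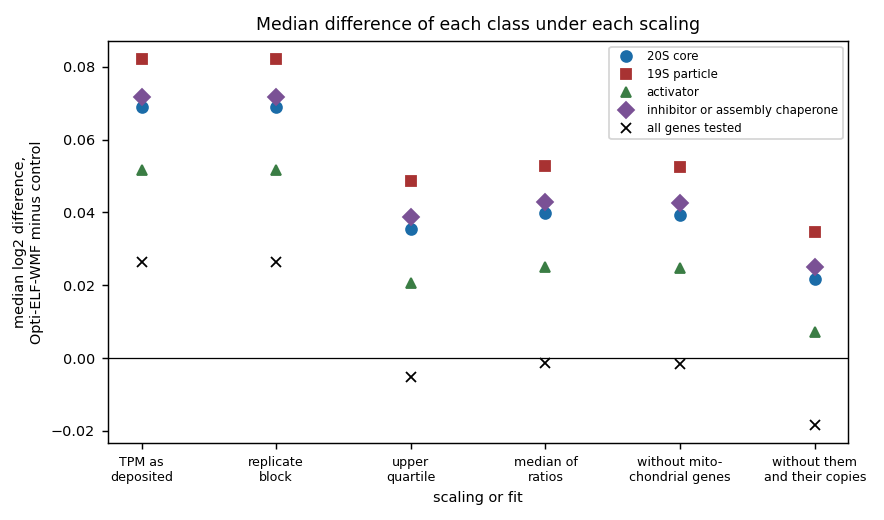
Median log2 difference of TPM + 1 (Opti-ELF-WMF minus control) of the members tested in each class and of all genes tested, as deposited, with a replicate block, and under 4 scalings. Every median moves down by a similar step when the scaling changes, and the 19S particle stays above the 20S core and the activators.

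The median member was above its control mean in every exposed dish. The median deviation of the 47 members from the control mean, on the log2(TPM + 1) scale, lay between -0.013 and 0.0080 in the control dishes and was 0.098, 0.085, 0.071 and 0.050 in the exposed dishes. The corresponding medians of all genes were -0.0022, 0.060, 0.025 and 0.026, so the dish with the largest deviation of the members was the lowest of the exposed dishes over all genes. The median of the members minus that of all genes was 0.10, 0.025, 0.046 and 0.024 in the exposed dishes. In the control dishes it lay between -0.019 and 0.018. The number of members above their control mean was 43, 39, 40 and 38 of 47 in the exposed dishes and 17 to 29 in the control dishes. Summed over all members, TPM ran from 6912 to 7069 without and from 7245 to 7478 with exposure, and the ranges did not overlap. These values per dish are on TPM as deposited. The mean share of mitochondria-encoded genes with their nuclear copies was 14.1% without and 11.2% with exposure, and such a fall raises all other genes. The sums and counts were not taken under other scalings. How many of all genes lay above their control mean in each dish was not counted.

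**Figure D3:**
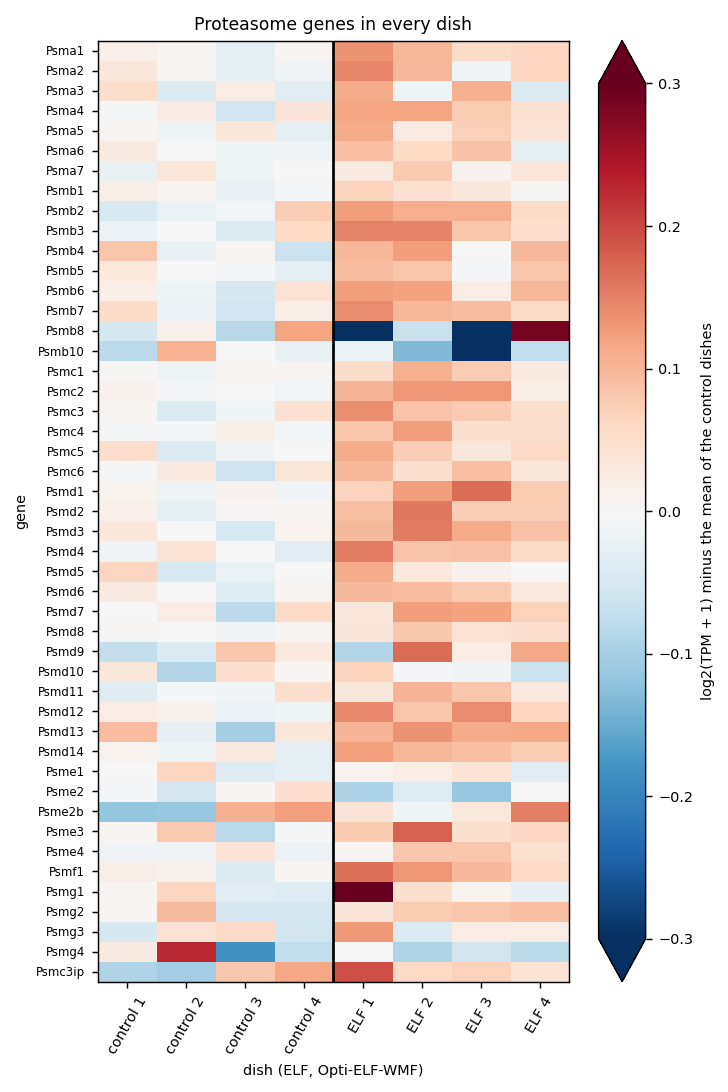
Deviation of log2(TPM + 1) of each tested proteasome gene from the mean of the 4 control dishes, by dish, with red above and blue below and the colours capped at 0.3. The exposed dishes are red for most core and 19S genes, while Psmb10 and Psme2 are blue or pale there and Psmb8 is mixed.

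The ATPases of the 19S base, Psmc1 to Psmc6, form the ring that unfolds substrates and opens the gate of the core. All 6 were higher with an unadjusted p-value under 0.05, by 0.066 to 0.095 (log2 of TPM + 1). The share called higher was 12% over all genes tested and 35.7% among genes of 100 to 425 TPM, where all 6 lay. In the order used above, 0, 1, 2 and 0 of the 6 were called under the 4 scalings, and all 6 had a difference above 0 under each. At this level 12.9%, 15.1%, 16.5% and 8.75% of genes were called higher in that order. Without limma's trend, 3 of the 6 ATPases were called higher, where 24.9% of genes at this level were. For 4 of the 6 ATPases every exposed dish exceeded every control dish, which held for 8.01% of all genes and 23.6% at this level. The TPM of Psmc4, the most abundant ATPase gene, was 292, 291, 296 and 291 in the control dishes and 310.1, 319, 302 and 303 in the exposed dishes. Every exposed dish lay above every control dish, with a difference of 0.077 (standard error 0.024, unadjusted p = 0.00987, adjusted p = 0.177 by limma). Of the 4 scalings, it was called only on TPM rescaled without mitochondria-encoded genes. The TPM of Psmc1, the least abundant, was 144, 142, 145 and 145 in the control dishes and 149.8, 155, 152 and 147 in the exposed dishes. These dishes did not overlap either, and the difference was 0.066 (standard error 0.024, unadjusted p = 0.0215, adjusted p = 0.226 by limma).

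Among the 14 non-ATPase genes of the 19S particle, 10 were higher with an unadjusted p-value under 0.05, and the median difference was 0.092. The share called higher was 12% over all genes and 35.7% among genes of 100 to 425 TPM. Under the 4 scalings 5, 5, 7 and 2 were called higher, where 12.9%, 15.1%, 16.5% and 8.75% of genes of 100 to 425 TPM were. Control and exposed dishes were fully separated, with the exposed dishes higher, in 13 of the 20 genes of the 19S particle. The same held for 3 of the 16 tested genes of the 20S core, 17 of all 47 members and 8.01% of all genes tested. Within 100 to 425 TPM it held for 16 of the 33 members and 23.6% of all genes. Separation was counted on TPM as deposited only. No member was separated in the lower direction, which 1.86% of all genes were. The 5 members with the smallest p-values were all of this class. The TPM of Psmd3, a scaffold subunit of the lid at chr11:98682554-98695979 (GENCODE M21 on GRCm38, as for all gene positions here), was 165, 161, 156 and 163 in the control dishes and 173, 179.8, 174 and 171 in the exposed dishes. The lowest exposed dish was above the highest control dish, and the difference was 0.11 (standard error 0.026, unadjusted p = 0.00175, adjusted p = 0.122 by limma), or 8.20% in TPM. The TPM of Psmd14 (chr2:61711694-61800376), the metalloprotease that cuts ubiquitin from substrates and whose promoter is printed above, was 193, 189.8, 195 and 188 in the control dishes and 209, 205, 204 and 202 in the exposed dishes. Its exposed dishes again lay above the control dishes, by 0.098 (standard error 0.023, unadjusted p = 0.00176, adjusted p = 0.122 by limma).

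The TPM of Psmd1, a large scaffold of the base that binds a ubiquitin receptor, was 157, 154, 157 and 154 in the control dishes and 163, 169.7, 175 and 164 in the exposed dishes. The difference was 0.11 (standard error 0.027, unadjusted p = 0.00276, adjusted p = 0.133 by limma). The TPM of Psmd12, a lid subunit, was 132, 131, 128 and 128 in the control dishes and 143, 137, 143 and 135 in the exposed dishes, with a difference of 0.11 (standard error 0.027, unadjusted p = 0.0029, adjusted p = 0.134 by limma). The TPM of Psmd2, the other large scaffold of the base, whose promoter is also printed, was 181, 176, 180.1 and 181 in the control dishes and 191, 200.4, 189 and 189 in the exposed dishes, with a difference of 0.099 (standard error 0.026, unadjusted p = 0.00377, adjusted p = 0.14 by limma). In each of these genes every exposed dish lay above every control dish. Under the 4 scalings Psmd3 and Psmd2 were called higher each time, while Psmd14, Psmd1 and Psmd12 missed the threshold only where the nuclear copies were also removed.

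The abundance of the non-ATPase genes ranged more widely than that of the ATPases. The TPM of Psmd8, a lid subunit and the most abundant member, was 418, 418, 414 and 419 in the control dishes and 429, 442, 429.9 and 432 in the exposed dishes. These dishes did not overlap, and the difference was small, at 0.053 (standard error 0.020, unadjusted p = 0.0244, adjusted p = 0.239 by limma), and 0.0054 to 0.024 under the 4 scalings, where it was not called. Psmd9, Psmd5 and Psmd10 encode chaperones that assemble the base and are not parts of the finished particle, and none of them was called. The TPM of Psmd9, the least abundant gene of the class, was 17.0, 17.4, 19.1 and 18.3 in the control dishes and 16.8, 20.3, 18.2 and 19.5 in the exposed dishes. The TPM of Psmd10 was 53.2, 48.8, 53.8 and 52.0 in the control dishes and 54.4, 51.7, 51.5 and 49.6 in the exposed dishes. Both sets of dishes overlapped, with differences of 0.054 (standard error 0.062) and -0.0040 (standard error 0.041), and that of Psmd5 was 0.039 (standard error 0.037). The remaining gene that was not called, the lid subunit Psmd11, had a difference of 0.062 (unadjusted p = 0.0608, adjusted p = 0.348 by limma).

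**Figure D4:**
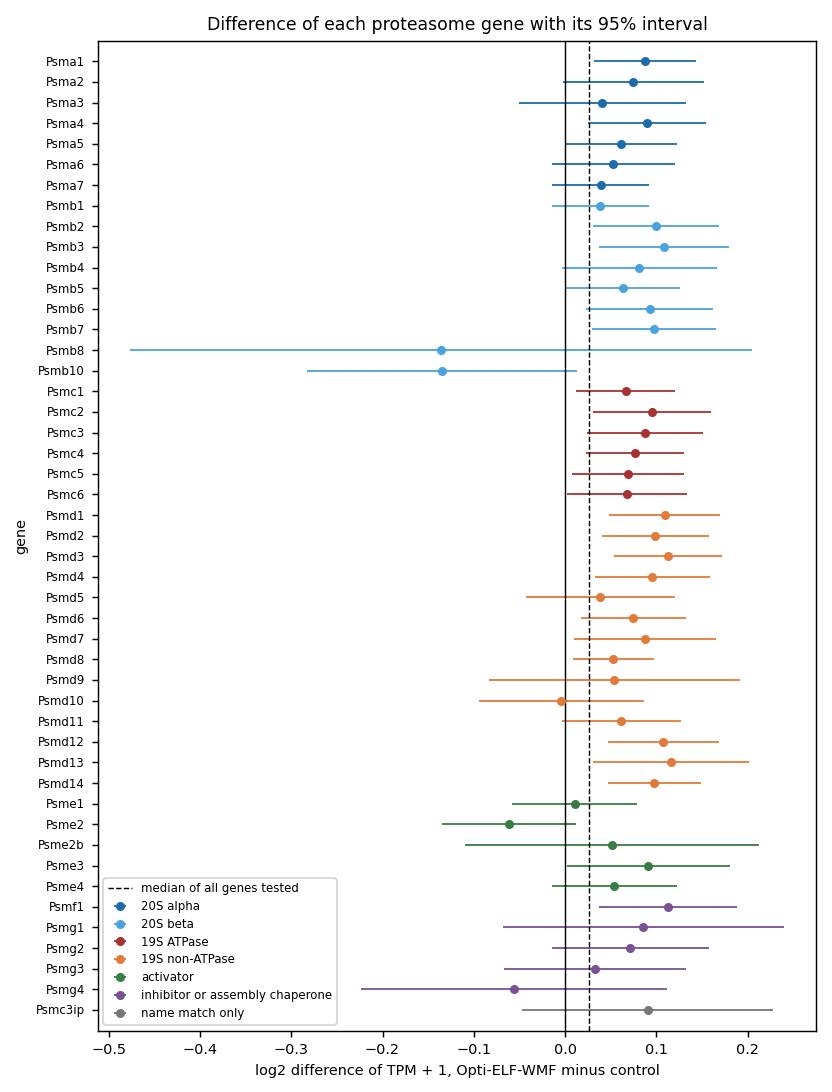
Difference in log2(TPM + 1) between Opti-ELF-WMF and control for each tested proteasome gene, with limma's 95% interval, coloured by class. The solid line marks 0 and the dashed line the median of all genes tested (0.026). On TPM as deposited all 6 ATPases have intervals above 0, which 0, 1, 2 and 0 of them have under the 4 scalings. Without limma's trend, 3 of them have such intervals.

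The alpha subunits form the outer rings of the core and its gate. All 7 tested were above 0, with a median difference of 0.062, and Psma1, Psma4 and Psma5 were higher with an unadjusted p-value under 0.05, where the share over all genes was 12% and that of genes of 100 to 425 TPM 35.7%. Under the 4 scalings 0, 0, 2 and 0 of the 7 were called, and 5 had a difference above 0 under the last of them. The TPM of Psma7, the most abundant of them, was 298, 310.5, 300.2 and 303 in the control dishes and 309, 319.9, 305 and 311 in the exposed dishes. The dishes overlapped, and the difference was 0.039 (standard error 0.024, unadjusted p = 0.131, adjusted p = 0.471 by limma). The TPM of Psma2, the least abundant of those tested, was 128, 125, 122 and 124 in the control dishes and 138, 134, 124 and 130.5 in the exposed dishes. These also overlapped, with a difference of 0.075 (standard error 0.035, unadjusted p = 0.0564, adjusted p = 0.34 by limma).

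Among the 9 tested beta subunits, Psmb2, Psmb3, Psmb5, Psmb6 and Psmb7 were higher with an unadjusted p-value under 0.05. Over all genes tested 12% were called higher, and 35.7% of those of 100 to 425 TPM, the range in which these called subunits lay. Under the 4 scalings 1, 2, 3 and 1 beta subunits were called higher, and Psmb5 and Psmb6 under none of them. In the same order, 12.9%, 15.1%, 16.5% and 8.75% of all genes in that range were called higher. The TPM of Psmb3, a structural subunit and the most abundant of the core, was 331, 334, 325 and 349 in the control dishes and 371, 371, 355 and 347 in the exposed dishes. The dishes overlapped by a single control dish, and the difference was 0.11 (standard error 0.032, unadjusted p = 0.0071, adjusted p = 0.166 by limma). The active sites are carried by Psmb6 (beta 1, chr11:70525367-70527858), Psmb7 (beta 2, chr2:38588036-38644087) and Psmb5 (beta 5, chr14:54614119-54618022). The TPM of Psmb6, whose promoter is printed above, was 252, 246, 241 and 257 in the control dishes and 272, 271, 253 and 267 in the exposed dishes, with a difference of 0.093 (standard error 0.031, unadjusted p = 0.0142, adjusted p = 0.195 by limma). The TPM of Psmb7 was 201, 192, 186 and 196 in the control dishes and 214, 208, 207 and 201 in the exposed dishes, with a difference of 0.097 (standard error 0.030, unadjusted p = 0.00996, adjusted p = 0.177 by limma). Its lowest exposed dish, at 201.3 TPM, was barely above its highest control dish, at 201.2 TPM, and those of Psmb6 overlapped. Of the 4 scalings, Psmb7 too was called only on TPM rescaled without mitochondria-encoded genes.

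The TPM of Psmb5, the target of proteasome inhibitors used in myeloma, was 217, 213, 211 and 208 in the control dishes and 226, 225, 212 and 225 in the exposed dishes. A single exposed dish lay among the control dishes, and the difference was 0.063 (standard error 0.028, unadjusted p = 0.0475, adjusted p = 0.311 by limma). Psmb5 can share reads with Gm3375, a processed pseudogene at chr7:3181093-3181888 on GRCm38 by GENCODE M21, whose sequence differs from the coding sequence of Psmb5 at 8 of 792 aligned bases. The 60-base windows below, from bases 263 to 322 of the coding sequence and 264 to 323 of the pseudogene, show how little separates them, with the differing bases in capitals.
Psmb5: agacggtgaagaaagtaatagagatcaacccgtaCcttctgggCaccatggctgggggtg
Gm3375: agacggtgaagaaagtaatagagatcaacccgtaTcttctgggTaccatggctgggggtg

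The TPM of Gm3375 was 78.5, 87.5, 80.2 and 80.8 in the control dishes and 96.6, 93.5, 86.2 and 82.9 in the exposed dishes. How reads were divided between the gene and the pseudogene was not tested, so their sum is also given. Psmb5 plus Gm3375 was at 294 ± 4.74 TPM (SD, n = 4) without and 312 ± 11.2 TPM (SD, n = 4) with exposure, a difference of 0.083 (standard error 0.029, unadjusted p = 0.0174, adjusted p = 0.212 by limma). Psmb5 alone was at 212 ± 3.63 TPM (SD, n = 4) in control dishes, between Psmb7 at 194 ± 6.46 TPM (SD, n = 4) and Psmb6 at 249 ± 7.03 TPM (SD, n = 4), and the sum was above Psmb6. Among the other near-identical copies of members, Gm13835, identical to Psma3 along the aligned bases, had a mean of 3.47 TPM, and those of Psma4, Psma5, Psmb3, Psmc1, Psmd2 and Psmd11 were below 1 TPM.

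Psmb8 and Psmb9 were scarce, while Psmb10, with a control mean of 26.4 TPM, was above the median of all genes tested, and neither Psmb10 (chr8:105935735-105938444) nor Psmb8 (chr17:34197721-34201454) was called. The TPM of Psmb10 was 24.9, 28.4, 26.4 and 25.9 in the control dishes and 26.0, 24.0, 21.0 and 25.0 in the exposed dishes. The dishes overlapped, with a difference of -0.13 (standard error 0.066, unadjusted p = 0.0689, adjusted p = 0.365 by limma). Under the 4 scalings its difference was -0.16 to -0.18, with unadjusted p-values of 0.0199 to 0.0398 and adjusted p-values of 0.355 to 0.4 by limma. The TPM of Psmb8 was 1.45, 1.56, 1.39 and 1.75 in the control dishes and 0.94, 1.42, 0.95 and 2.09 in the exposed dishes, and the exposed dishes held both the lowest and the highest value. Its difference was -0.14 (standard error 0.15, unadjusted p = 0.394, adjusted p = 0.725 by limma).

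A share of each inducible subunit in the summed TPM of its pair does not depend on the scaling of the sample. For Psmb10 with Psmb7 this share was 11.0%, 12.9%, 12.4% and 11.7% in the control dishes and 10.8%, 10.3%, 9.24% and 11.0% in the exposed dishes. A single exposed dish reached into the range of the control dishes, at its lower end. The means were 12.0% ± 0.844 (SD, n = 4) and 10.4% ± 0.804 (SD, n = 4), a difference of -1.63 percentage points (two-sided exact permutation test, p = 0.0571, adjusted p = 0.171 over the 3 pairs). For Psmb8 with Psmb5 the share was 0.720% ± 0.0825 (SD, n = 4) without and 0.602% ± 0.232 (SD, n = 4) with exposure (exact permutation p = 0.343, adjusted p = 0.514). For Psmb9 with Psmb6 it was 0.331% ± 0.0635 (SD, n = 4) and 0.328% ± 0.0945 (SD, n = 4), with an exact permutation p = 0.971, the same after adjustment. The smallest p-value that 4 against 4 dishes can give is 0.0286, which becomes 0.0857 for a pair that differs alone, so a single pair could not pass 0.05 after adjustment.

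**Figure D5:**
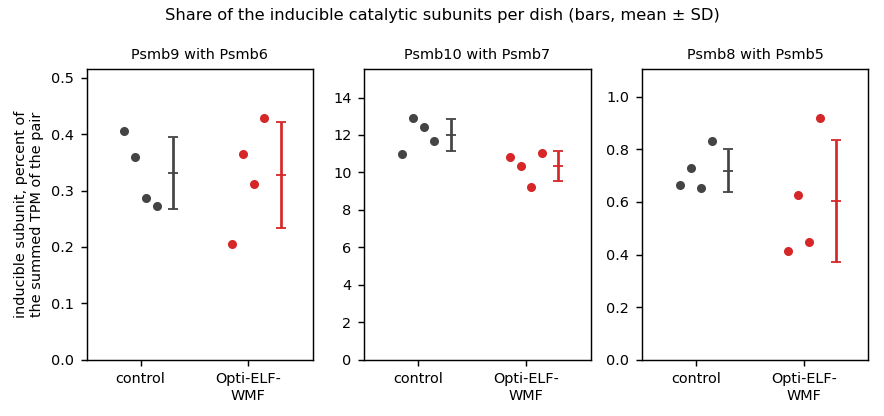
Share of Psmb9, Psmb10 and Psmb8 in the summed TPM of the pair with the constitutive subunit of the same position, in percent, for each dish, with the mean ± SD beside the points (n = 4). The shares of Psmb10 overlap at about 11.0%, and those of the other pairs are below 1%.

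The activators bind the ends of the core in place of the 19S particle. Psme1 and Psme2 encode the subunits of an interferon-induced ring, Psme3 a related ring of the nucleus, and Psme4 a large activator made of a single chain. The TPM of Psme3 was 137, 144, 129 and 136 in the control dishes and 144, 154, 141 and 142 in the exposed dishes, and it was the only activator called higher, by 0.091 (standard error 0.040, unadjusted p = 0.0464, adjusted p = 0.309 by limma). Under the 4 scalings it was not called, with differences of 0.044 to 0.062. Its highest control dish stood among the exposed dishes. The TPM of Psme4 was 44.5, 44.5, 46.1 and 44.3 in the control dishes and 45.0, 47.5, 47.6 and 46.4 in the exposed dishes, with a difference of 0.054 (standard error 0.031, unadjusted p = 0.111, adjusted p = 0.443 by limma). The TPM of Psme1 was 93.8, 98.3, 91.5 and 92.2 in the control dishes and 94.6, 95.4, 96.6 and 91.8 in the exposed dishes. The dishes of Psme1 overlapped throughout, and its difference was 0.011 (standard error 0.031), which turned to -0.019 to -0.037 under the 4 scalings.

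The TPM of Psme2, whose mean over all dishes was 137 against 141 for Psme3, at chr14:55587441-55591113, was 139, 135, 140.5 and 145 in the control dishes and 131, 136, 129 and 139.7 in the exposed dishes. Its values leaned lower with an overlap, by -0.062 (standard error 0.033, unadjusted p = 0.0907, adjusted p = 0.405 by limma), and under the 4 scalings by -0.091 to -0.11. The TPM of Psme2b, an intronless relative 99.37% identical to Psme2 along the aligned bases, was 9.26, 9.28, 11.0 and 11.1 in the control dishes and 10.4, 10.0, 10.4 and 11.4 in the exposed dishes. These reads can be split between the genes by the counting, and their sum was 150.0 ± 4.94 TPM (SD, n = 4) without and 145 ± 5.12 TPM (SD, n = 4) with exposure, with a difference of -0.054 (standard error 0.034).

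Psmf1 encodes a protein that inhibits the core in vitro, and was the only gene of its class called. The TPM of Psmf1 was 38.4, 38.3, 36.8 and 38.0 in the control dishes and 42.6, 41.6, 40.6 and 39.4 in the exposed dishes. Every exposed dish lay above every control dish, by 0.11 (standard error 0.034, unadjusted p = 0.00778, adjusted p = 0.168 by limma), and the call was lost only where the nuclear copies were also removed. Psmg1 to Psmg4 encode the chaperones that assemble the alpha ring. The TPM of Psmg1, the least abundant, was 26.8, 28.0, 26.1 and 26.0 in the control dishes and 33.3, 27.7, 26.9 and 26.2 in the exposed dishes, and a single exposed dish stood above the rest. The TPM of Psmg4, the most abundant, was 43.5, 50.1, 37.5 and 40.5 in the control dishes and 42.7, 40.0, 41.0 and 40.3 in the exposed dishes, and its control dishes spanned all exposed dishes. The differences were 0.086 (standard error 0.069) for Psmg1, 0.072 (standard error 0.038) for Psmg2, 0.033 (standard error 0.045) for Psmg3 and -0.056 (standard error 0.075) for Psmg4.

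Psmc3ip, which shares only the prefix, was at 19.7 ± 1.64 TPM (SD, n = 4) without and 21.0 ± 1.07 TPM (SD, n = 4) with exposure. Its difference of 0.091 (standard error 0.061) was not called. Psmc3ip, Psmb7, Psmb9 and Psmd13 overlap a neighbour on the opposite strand (Mlx, Nek6, Tap1 and Sirt3), and the libraries were stranded, although whether the counting used the strand is not given in the sources used here. Psmd1 and Psmg3 overlap a model on the same strand, and the level of each of these models was below 1 TPM.

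Partners of the proteasome were taken as a list of 32 genes, all of them tested. By an unadjusted p-value under 0.05, 9 were higher and 0 lower, 31 had a difference above 0, and the median was 0.056. All values of this list are on TPM as deposited, and its calls under the 4 scalings were not counted. Over all genes tested the shares higher, lower and above 0 were 12%, 3.65% and 63.7%, and genes of 100 to 425 TPM had 35.7% higher with a median of 0.057. Uba1, the main enzyme that activates ubiquitin, was at 355 ± 7.05 TPM (SD, n = 4) without and 385 ± 7.01 TPM (SD, n = 4) with exposure, a difference of 0.12 (standard error 0.024). Vcp, the ATPase that extracts ubiquitin-tagged proteins, differed by 0.11 (standard error 0.027), and Rad23b, a shuttle that carries tagged proteins to the 19S particle, by 0.15 (standard error 0.041). Adrm1, a ubiquitin receptor of the 19S particle, and Uchl5, the deubiquitinase bound to it, were also among the 9, with differences of 0.070 (standard error 0.028) and 0.093 (standard error 0.038). Sem1, the smallest lid subunit, and Pomp, the maturation factor of the core, were not, with 0.023 (standard error 0.051) and 0.058 (standard error 0.058). Nfe2l1 was at 75.4 ± 5.86 TPM (SD, n = 4) without and 79.8 ± 2.44 TPM (SD, n = 4) with exposure, and its dishes overlapped. None of these genes passed 0.05 after adjustment.

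The antigen presentation and interferon list, which goes with the inducible subunits, had 13 of 14 genes tested and a median difference of -0.019. Its values too are on TPM as deposited only. Of the 13 genes, 1 was higher and 2 lower by an unadjusted p-value under 0.05, where 12% and 3.65% of all genes were. Stat2, a transducer of interferon signals, was at 30.9 ± 1.38 TPM (SD, n = 4) without and 25.6 ± 1.62 TPM (SD, n = 4) with exposure, a difference of -0.26 (standard error 0.052, unadjusted p = 0.000536, adjusted p = 0.122 by limma). Its dishes did not overlap. Irf9, its partner, differed by -0.16 (standard error 0.069) with an overlap, and B2m, the light chain of class I molecules, by 0.062 (standard error 0.024) without one. Such separation was found in 8.01% of all genes in the higher and 1.86% in the lower direction. Irf1, another interferon-responsive factor, was not called, with a difference of -0.052 (standard error 0.040).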

How the data were processed

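RNA of 8 dishes was sequenced by the authors as 150 bp paired-end reads after a stranded, poly(A)-selecting library protocol. Each deposited table gives the TPM of every gene in 1 dish as computed by the authors, and the submitters' processing notes name Trimmomatic 0.39, STAR 2.7.4a, RSEM 1.3.3 and mm10. The annotation and the strand setting are not given in the sources used here. TPM keeps no library size, so the depth and the counting error are unknown. All value columns were used.

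Groups came from the sample titles (n = 4 each). Control and exposed cells were prepared from the same batch of culture, as the paper states. The p-values therefore measure the spread between these dishes and not between independent cultures. At most 3.79% of values were identical between 2 dishes.

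Genes reaching a TPM of 1 in 4 or more dishes were fitted on log2(TPM + 1) with limma 3.58.1 (R 4.3.3, lmFit, eBayes with a trend), two-sided, with Benjamini-Hochberg adjustment over all genes. Fold changes on this scale understate those of low genes. Intervals are limma's 95% intervals. Shares of catalytic pairs were compared by exact permutation over 70 assignments (numpy 2.4.6). The code was tested on simulated data. Near-identical copies (at least 95% identity over at least 80% of the copy) and overlaps were found by BLAST against GENCODE M21 transcripts, which matched 55141 gene identifiers. Promoters came from RefSeq on GRCm38.p6. Coordinates on mouse chromosomes follow these annotations.

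Members and lists were chosen with earlier results of these data known. Values per dish are given for the 5 higher and the 5 lower members of smallest p-value, the catalytic subunits and their inducible forms, the most and least abundant member of each class, and Psme1 to Psme4, and all others by ranges, counts or differences. Alternatives were a pseudocount of 0.1, no filter, other scalings, eBayes without the trend, rescaling without mitochondrial genes, a replicate block and leaving out each dish. The range of 100 to 425 TPM, rescaling without nuclear copies of mitochondrial genes, and adding near-identical copies were chosen after seeing the data.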

Additional observations from a re-analysis of the deposited data

Results flagged for a closer look

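In 4 of the 100 groups of 4 dishes examined among the members, a single dish lay far from the others by Dixon's criterion, where chance flags about 1 in 20 groups, or 5 here. In Opti-ELF-WMF replicate 3, Psmb5 was at 211.63 TPM, while the other exposed dishes lay between 224.95 and 226.29 TPM. Psmc4 was at 296.04 TPM in control replicate 3, against 290.9 to 291.55 TPM, and Psme4 at 46.11 TPM in the same dish, against 44.28 to 44.54 TPM. Psmc3ip, which is no proteasome gene, stood at 22.59 TPM in the dish Opti-ELF-WMF replicate 1, while the others ranged from 20.25 to 20.65 TPM. Without the dish that stood apart, the log2 difference of Psmb5 was 0.086, that of Psmc4 0.083, that of Psme4 0.067 and that of Psmc3ip 0.057.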

How the results depend on the processing

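The 26 members higher with an unadjusted p-value under 0.05 became 7 after upper-quartile scaling, 9 after median-of-ratios scaling, 15 on TPM rescaled without mitochondria-encoded genes and 3 when their nuclear copies were also removed. Members lower were 2 under each of these 4 scalings. With eBayes fitted without the trend, 18 members were higher and 0 lower, among them 11 of the 19S particle and 6 of the 20S core. Leaving out each dish in turn gave 20 to 25 higher and 0 to 2 lower, and the genes past the adjusted threshold were 0 to 6 among all genes (6 without Opti-ELF-WMF replicate 2, 2 without control replicate 2, 1 without control replicate 3). Lower members were 2 without Opti-ELF-WMF replicate 4, and 1 without control replicate 1, without control replicate 2 or without Opti-ELF-WMF replicate 1. The genes past the adjusted threshold numbered 1 after upper-quartile or median-of-ratios scaling, without the trend, and without mitochondrial genes and copies.

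In the order of these 4 scalings, the median difference of the 20S core was 0.035, 0.040, 0.039 and 0.022, that of the 19S particle 0.049, 0.053, 0.052 and 0.035, and that of the activators 0.021, 0.025, 0.025 and 0.0071. The activators had 0.032 with near-identical copies added and 0.029 as a mean over members. With each dish left out, the medians were 0.052 to 0.090 for the 20S core, 0.075 to 0.092 for the 19S particle, 0.013 to 0.064 for the activators and 0.012 to 0.10 for the inhibitor and chaperones (0.012 without Opti-ELF-WMF replicate 1). Without Opti-ELF-WMF replicate 3 the 20S core, at 0.090, was above the 19S particle, at 0.082. The activators had 0.013 without control replicate 1, 0.032 without control replicate 2, 0.064 without control replicate 3 and 0.025 without Opti-ELF-WMF replicate 4. The share difference of Psmb9 with Psmb6 ran from -0.037 to 0.037 percentage points, that of Psmb10 with Psmb7 from -1.97 to -1.26 and that of Psmb8 with Psmb5 from -0.22 to -0.055.

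Among 798 values of single members under the alternatives, 15 in 8 genes changed sign, none of them past the adjusted threshold. Psme1 was at -0.023, -0.019, -0.019 and -0.037 under the 4 scalings and -0.0020 without control replicate 3. Psmg3 was at -0.00030 after upper-quartile scaling and -0.014 without mitochondrial genes and copies, where Psmd5 was at -0.0083, Psma3 at -0.0069, Psma7 at -0.0084 and Psmb1 at -0.0088. Psmd10 was at 0.0076 without control replicate 1, 0.013 without control replicate 3 and 0.017 without Opti-ELF-WMF replicate 4, and ran from -0.034 to 0.017 over all such fits, and Psmg4 was at 0.020 without control replicate 2 and ran from -0.12 to 0.020. The cause was not tested.

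Replicate numbers did not pair the dishes: the correlation of the deviations of same-numbered dishes lay between -0.042 and 0.026, and 0 of the 8 dishes correlated best with its own number. With the replicate number as a block, 25 members were higher and 0 lower, and no gene passed the adjusted threshold. The depth behind the TPM values is unknown, which limits statements on low members such as Psmb8 and Psmb9.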
